A study of Mus musculus with 6 samples.

Results

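The genes described here are the 5 that form the RANKL, osteoprotegerin and M-CSF axis: Tnfsf11 (RANKL), Tnfrsf11a (its receptor RANK), Tnfrsf11b (osteoprotegerin), Csf1 (M-CSF) and Csf1r (the M-CSF receptor). They were chosen by symbol, and each matched 1 of the 56748 gene identifiers in the count tables. The tables come from tibiae of female mice aged 12 weeks, namely 3 samples labelled Col1a1+/- (heterozygous in a gene that encodes a chain of type I collagen) and 3 labelled wild type (WT). No treatment is named for any of the 6 samples, although the series title speaks of one against TGF-beta. Marrow was flushed out before the bones were frozen and ground, so RNA of bone, of cartilage, and of any muscle or marrow that remained was read together. The labels do not say how the Col1a1 allele was made, nor whether the samples are separate animals. The p-values below therefore measure only the spread between these samples.

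Osteoclasts, the cells that resorb bone, form from precursors of the monocyte lineage. M-CSF, made by osteoblasts, osteocytes and other stromal cells, binds its receptor on these precursors and keeps them alive and dividing. RANKL, presented or shed by osteocytes, osteoblasts and hypertrophic chondrocytes, binds RANK on the same cells and switches on the osteoclast programme. Osteoprotegerin is a secreted decoy receptor that binds RANKL and keeps it from RANK, so that the balance of RANKL to osteoprotegerin is a common measure of how strongly a bone favours resorption.

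Total counts lay between 26.8 and 32.4 M reads per library. Levels are given in CPM, reads scaled to library size after TMM normalization. Col1a1 itself stood at 61149, 52880 and 59598 CPM in Col1a1+/- and at 36810, 61347 and 54799 CPM in WT (log2 fold change 0.18, SE 0.31, edgeR adjusted p = 0.78), so its level did not part the genotypes. Its ratio to Col1a2 did, at 0.775 to 0.836 in Col1a1+/- and 1.25 to 1.32 in WT. The tissue mix of the libraries differed between genotypes. A list of 25 skeletal muscle markers took 1.96% to 3.9% of counts in Col1a1+/- and 6.26% to 7.9% in WT, and 12 of them fell. That count was 23 by DESeq2, 21 without Col1a1+/- replicate 2, 7 without WT replicate 1 and 0 without any 1 of the other 4 libraries, while 0 of the 25 had a log2 fold change above 0 in any of these. Over all genes the number that fell was 538 by edgeR with all libraries and 1468 by DESeq2. With libraries left out it was 762, 1172 and 0 to 12, in the same order. The 15 cartilage markers took 0.842% to 0.953% in Col1a1+/- and 0.417% to 0.55% in WT. WT replicate 1 stood apart in its neutrophil markers, which took 0.677% of its counts, against 0.113% to 0.188% in Col1a1+/- and 0.16% and 0.165% in the other WT libraries. Of the 16 neutrophil markers 0 had a log2 fold change above 0, with that library (median -1.23) or without it (median -0.34). Because these are bulk libraries, more cells of a type and more RNA per cell cannot be told apart.

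All 5 genes were expressed in every library, and both M-CSF genes were far more abundant than the RANKL genes. On a scale of CPM per kilobase of exon, which allows levels of different genes to be compared, Csf1r averaged 58.6 ± 4.84 in Col1a1+/- and 47.3 ± 4.05 in WT (SD, n = 3 each). Csf1 came next, at 32.8 ± 2.23 CPM per kilobase in Col1a1+/- and 24.7 ± 4.05 in WT. The other 3 genes lay much lower. Tnfrsf11b was at 12.0 ± 3.46 CPM per kilobase in Col1a1+/- and 4.44 ± 0.593 in WT, Tnfsf11 at 5.99 ± 1.21 in Col1a1+/- and 3.73 ± 0.286 in WT, and Tnfrsf11a at 5.13 ± 1.04 in Col1a1+/- and 3.74 ± 0.638 in WT.

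Tnfrsf11b had the highest mean of these 3 lower genes in both genotypes, but stood clear of the others only in Col1a1+/-. In Col1a1+/- every library held more Tnfrsf11b (8.02 to 14.1 CPM per kilobase) than any library held Tnfsf11 (4.95 to 7.31) or Tnfrsf11a (4.52 to 6.33). In WT the ranges of Tnfrsf11b (3.79 to 4.94 CPM per kilobase), Tnfsf11 (3.56 to 4.06) and Tnfrsf11a (3.25 to 4.46) overlapped. Tnfsf11 and Tnfrsf11a overlapped in both genotypes.

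Of the 5 genes, 1 passed the test between genotypes, Tnfrsf11b, which rose in Col1a1+/-, and 0 were lower. The threshold was an adjusted p of 0.05 by edgeR's quasi-likelihood test, which 4.34% of all 18514 tested genes passed, 1.43% as higher and 2.91% as lower in Col1a1+/-. An unadjusted p under 0.05 by the same test was held by 4228 of them. DESeq2 called 788 as higher and 1468 as lower. Such counts for the lists below are to be read beside these. All 5 genes had their 3 Col1a1+/- libraries above their 3 WT libraries in CPM, which held for 14.0% of all tested genes (28.6% did not overlap in either direction). Their median log2 fold change (Col1a1+/- over WT) was 0.46, and that of all tested genes was -0.01. Markers of cells that make or use these factors differed by list. A log2 fold change above 0 was found for 19 of 20 osteoblast markers, 12 of 12 osteocyte markers tested and 15 of 16 osteoclast markers. The same held for 12 of 17 macrophage and monocyte markers tested, 5 of 13 marrow stromal markers and 9090 of all 18514 tested genes. With libraries scaled on osteocyte markers, which moves the median of all genes to -0.60, 14 osteoblast and 1 osteoclast markers were above 0. So were 6 osteocyte markers, a count that the scaling itself holds near the middle of that list. The mean log2 CPM of the osteocyte list lay between 6.22 and 6.65 in Col1a1+/- and between 5.48 and 6.32 in WT. In that setting 0 macrophage and monocyte markers, 0 marrow stromal markers and 2 of the 5 axis genes were above 0. The part of these cells' RNA in the levels of the axis genes was not tested.

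**Figure D1:**
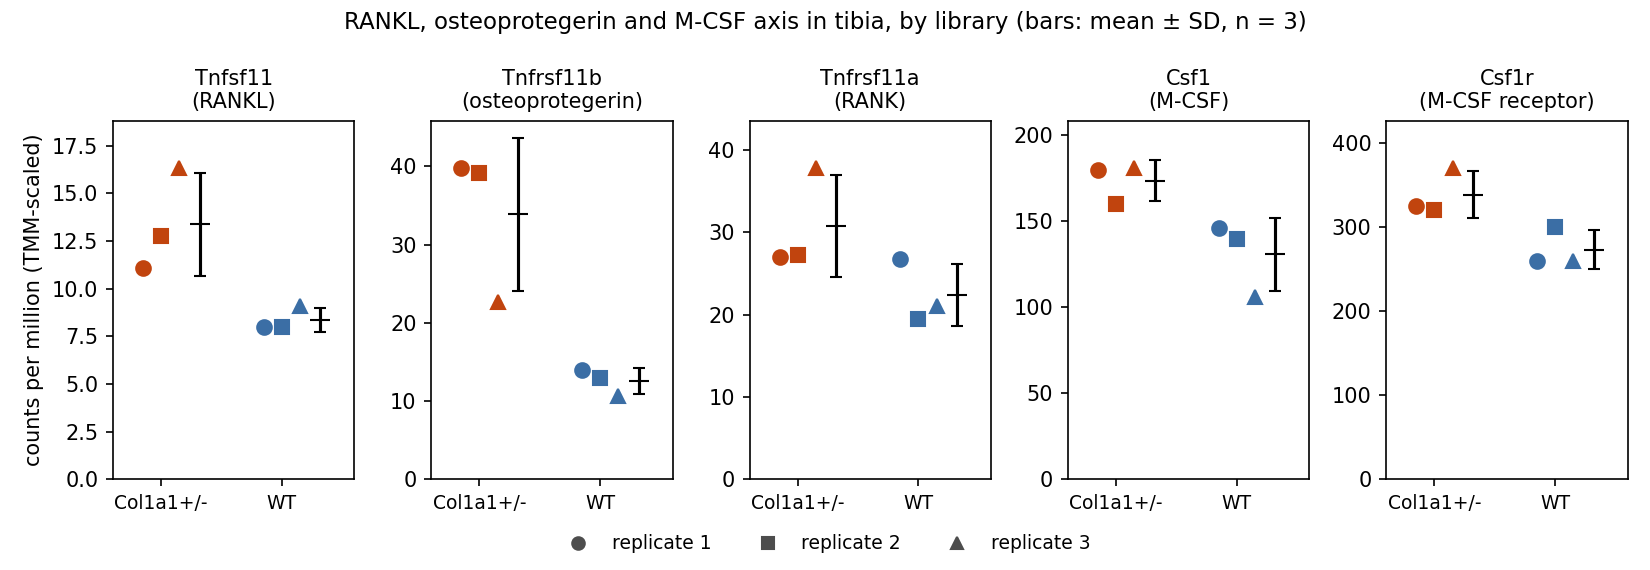
Each panel plots 1 gene in CPM after TMM scaling on an axis that starts at 0, with 1 point per library and the mean and SD of 3 libraries beside the points. All Col1a1+/- points lie above all WT points, by a wide margin for Tnfrsf11b and narrowly for Tnfrsf11a, where 27.1 CPM in Col1a1+/- replicate 1 is next to 26.7 CPM in WT replicate 1.

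Tnfrsf11b encodes osteoprotegerin. The gene (ENSMUSG00000063727) lies on the minus strand of chromosome 15, from 54114015 to 54141880 on GRCm39, with 2818 bp of exon that no other annotated gene shares. It stood at 39.9, 39.1 and 22.6 CPM in Col1a1+/- replicates 1, 2 and 3, against 13.9, 13.0 and 10.7 CPM in the WT replicates. Replicates 1 and 2 of Col1a1+/- were nearly equal, and replicate 3 lay between them and the WT libraries without overlapping either. The means were 33.9 ± 9.75 CPM in Col1a1+/- and 12.5 ± 1.67 CPM in WT (SD, n = 3 each). The fold change was 2.70 (log2 fold change 1.43, SE 0.22, 95% interval 0.92 to 1.95, edgeR adjusted p = 0.0239), and 99.5% of all tested genes had a smaller log2 fold change. The log2 fold change was above 0 in all 16 settings. The call was lost without Col1a1+/- replicate 1 (edgeR adjusted p = 0.122), WT replicate 2 (0.0741) or WT replicate 3 (0.0865). Those fits called 0, 8 and 0 genes in all, against 803 with all libraries. The call was also lost with libraries scaled on osteocyte markers (0.0547) and with a muscle score as covariate (0.825), where 0 genes were called in all. That score, the mean log2 CPM of the muscle markers, was 6.99 to 8.63 in Col1a1+/- and 9.57 to 10.6 in WT. Because it parted the genotypes, the setting with this covariate cannot tell muscle content from genotype.

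Tnfsf11 encodes RANKL. It (ENSMUSG00000022015) lies on the minus strand of chromosome 14, from 78514885 to 78545483, with 2236 bp of exon. Its levels were 11.1, 12.8 and 16.4 CPM in the Col1a1+/- replicates, against 7.97, 7.97 and 9.08 CPM in the WT replicates. The groups did not overlap, and Col1a1+/- replicate 3, the library of that genotype with the least Tnfrsf11b, held the most Tnfsf11. The means were 13.4 ± 2.7 CPM in Col1a1+/- and 8.34 ± 0.639 CPM in WT (SD, n = 3 each). The log2 fold change of 0.68 (SE 0.18, 95% interval 0.28 to 1.09, unadjusted for the other genes) missed the threshold by edgeR (adjusted p = 0.0628). It passed by DESeq2 (adjusted p = 0.0107), which called 4.26% of all tested genes as higher. It passed by edgeR too without a filter on low counts (adjusted p = 0.0249) and with library totals in place of TMM (adjusted p = 0.0453). Those 2 fits called 577 and 588 genes as higher, against 265 with the filter and TMM. Library totals also moved the median log2 fold change of all genes to 0.07. With libraries scaled on osteocyte markers the log2 fold change of Tnfsf11 was 0.06. Its reads were few, at 220 to 463 per library.

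The ratio of Tnfsf11 to Tnfrsf11b reads, free of any scaling between libraries, was lower on average in Col1a1+/- but overlapped between genotypes. It was 0.277, 0.326 and 0.723 in Col1a1+/- replicates 1, 2 and 3, against 0.572, 0.615 and 0.851 in the WT replicates. The ratios of Col1a1+/- replicates 1 and 2 lay below every WT library, whereas that of replicate 3 lay inside the WT range. Its exact 95% counting interval was 0.64 to 0.817, and those of replicates 1 and 2 ended at 0.312 and 0.367, so counting error was small beside the distance between these libraries. Such intervals cover counting error only, and are too narrow here because both mates of a read pair were counted.

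The mean ratio was 0.442 ± 0.245 in Col1a1+/- and 0.679 ± 0.15 in WT (SD, n = 3 each), or 0.651 times the WT mean. The difference of -0.237 was smaller in size than the SD in Col1a1+/- and larger than the SD in WT (exact two-sided permutation p = 0.3, where the smallest possible with 3 against 3 is 0.1). Without Col1a1+/- replicate 3 the difference was -0.377, and without WT replicate 3 it was -0.151. Per length of exon the mean ratio was 0.557 in Col1a1+/- and 0.856 in WT.

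**Figure D2:**
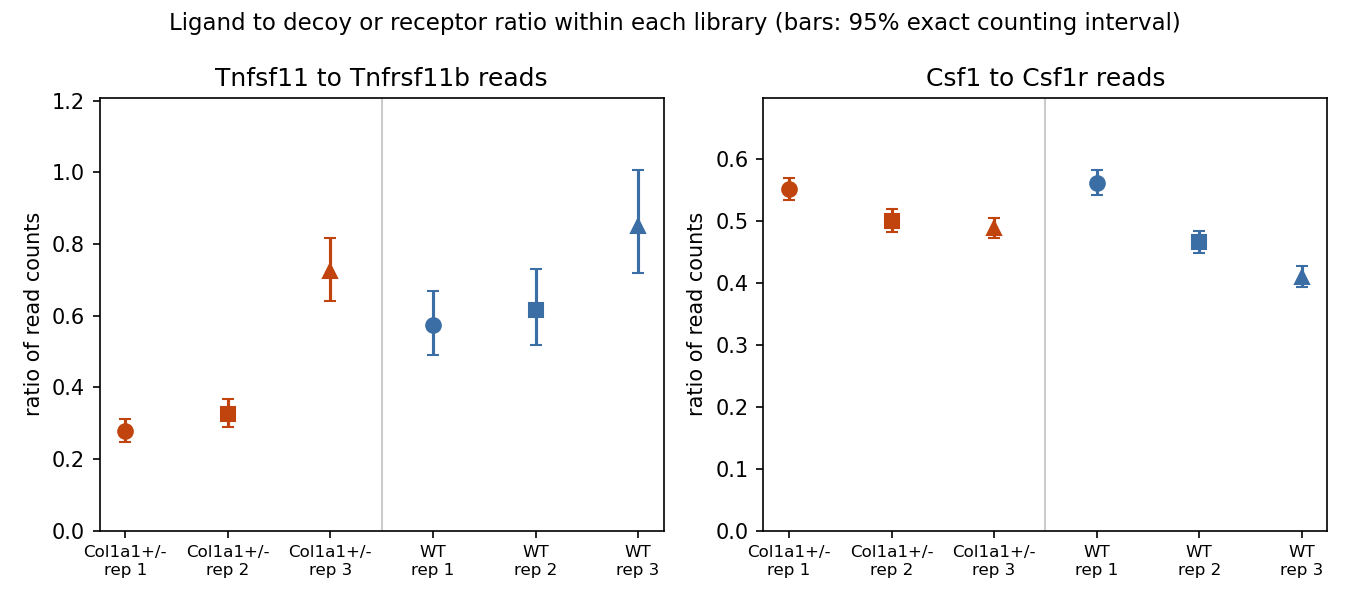
Ratios of read counts within each library are plotted for Tnfsf11 to Tnfrsf11b on the left and Csf1 to Csf1r on the right, on axes from 0, with exact 95% counting intervals as bars. Col1a1+/- replicates 1 and 2 sit below all WT libraries in the left panel and replicate 3, at 0.723, sits among them. In the right panel WT replicate 1 sits above every Col1a1+/- library and WT replicates 2 and 3 sit below every one.

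Tnfrsf11a encodes RANK, which osteoclast precursors and osteoclasts carry. It (ENSMUSG00000026321) lies on the plus strand of chromosome 1, from 105708443 to 105775709, with 5987 bp of exon. It was at 27.1, 27.3 and 37.9 CPM in the Col1a1+/- replicates, against 26.7, 19.5 and 21.0 CPM in the WT replicates. Col1a1+/- replicates 1 and 2 were close to WT replicate 1, and replicate 3 was the highest of all. The log2 fold change of 0.46 (SE 0.17, 95% interval 0.06 to 0.85) did not pass (edgeR adjusted p = 0.16). It passed without WT replicate 1, at 0.63 (edgeR adjusted p = 0.0441), where 594 genes were called higher, against 265 with all libraries. The log2 fold change of Tnfrsf11a turned below 0 with libraries scaled on osteocyte markers (-0.20) and with the muscle covariate (-0.14, SE 0.32), which parted the genotypes itself.

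Csf1 encodes M-CSF, the survival factor of the lineage. It (ENSMUSG00000014599) lies on the minus strand of chromosome 3, from 107648364 to 107667785, with 5281 bp of exon. It was at 179, 160 and 181 CPM in the Col1a1+/- replicates, against 146, 140 and 106 CPM in the WT replicates, and the lowest of all was WT replicate 3. The means were 173 ± 11.8 CPM in Col1a1+/- and 131 ± 21.4 CPM in WT (SD, n = 3 each; log2 fold change 0.41, SE 0.14, 95% interval 0.10 to 0.72, edgeR adjusted p = 0.119). It passed without WT replicate 1, at 0.53 (edgeR adjusted p = 0.0402), where 594 genes were called higher, against 265 with all libraries. Its log2 fold change lay at 0.28 without WT replicate 3. Scaling on osteocyte markers turned the value to -0.18 and the muscle covariate to -0.07, while a neutrophil and erythroid score as covariate gave 0.63 without a call.

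Csf1r encodes the receptor tyrosine kinase for M-CSF, carried by monocytes, macrophages and osteoclasts. It (ENSMUSG00000024621) lies on the plus strand of chromosome 18, from 61233670 to 61265221, with 5774 bp of exon. Of that length 15.1% is shared with Hmgxb3 on the opposite strand. Reads over both genes were left out of the counts, and reads of the 2 strands cannot be told apart. Csf1r stood at 325, 320 and 371 CPM in the Col1a1+/- replicates, against 260, 300 and 259 CPM in the WT replicates, and 320 CPM in Col1a1+/- replicate 2 was closest to 300 CPM in WT replicate 2. The means were 339 ± 27.9 CPM in Col1a1+/- and 273 ± 23.4 CPM in WT (SD, n = 3 each). Its log2 fold change was the smallest of the 5 genes, at 0.31 (SE 0.12, 95% interval 0.03 to 0.59, edgeR adjusted p = 0.178), and passed in 0 of 16 settings. Scaling on osteocyte markers turned it to -0.27, and the muscle covariate left it at 0.08. Hmgxb3 stood at -0.10 (edgeR adjusted p = 0.691).

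The ratio of Csf1 to Csf1r reads was 0.551, 0.5 and 0.488 in Col1a1+/- and 0.561, 0.466 and 0.409 in WT. WT replicate 1 lay above every Col1a1+/- library, and WT replicates 2 and 3 lay below every one. The means of 0.513 ± 0.0335 in Col1a1+/- and 0.479 ± 0.0769 in WT (SD, n = 3 each) differed by 0.0345 (exact permutation p = 0.5). That difference was smaller than the SD in WT and slightly larger than the SD in Col1a1+/-.

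Of the 10 ratios that the 5 genes form with each other, 2 parted all Col1a1+/- from all WT libraries, and both have Tnfrsf11b on top. They rest on the Tnfrsf11b levels given above, and the share of all gene pairs that part the genotypes was not computed. The ratio of Tnfrsf11b to Csf1 was 0.222, 0.245 and 0.125 in the Col1a1+/- replicates and 0.0955, 0.0929 and 0.101 in the WT replicates. That of Tnfrsf11b to Csf1r was 0.123, 0.122 and 0.061 in Col1a1+/- and 0.0536, 0.0432 and 0.0412 in WT. Both had an exact permutation p of 0.1, the smallest possible, and 0.5 after Benjamini-Hochberg adjustment over the 10 ratios. The ratio of Tnfrsf11a to Tnfrsf11b, receptor to decoy, was 0.679, 0.697 and 1.68 in Col1a1+/- and 1.92, 1.5 and 1.97 in WT (exact permutation p = 0.2). Here again Col1a1+/- replicate 3 lay inside the WT range.

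**Figure D3:**
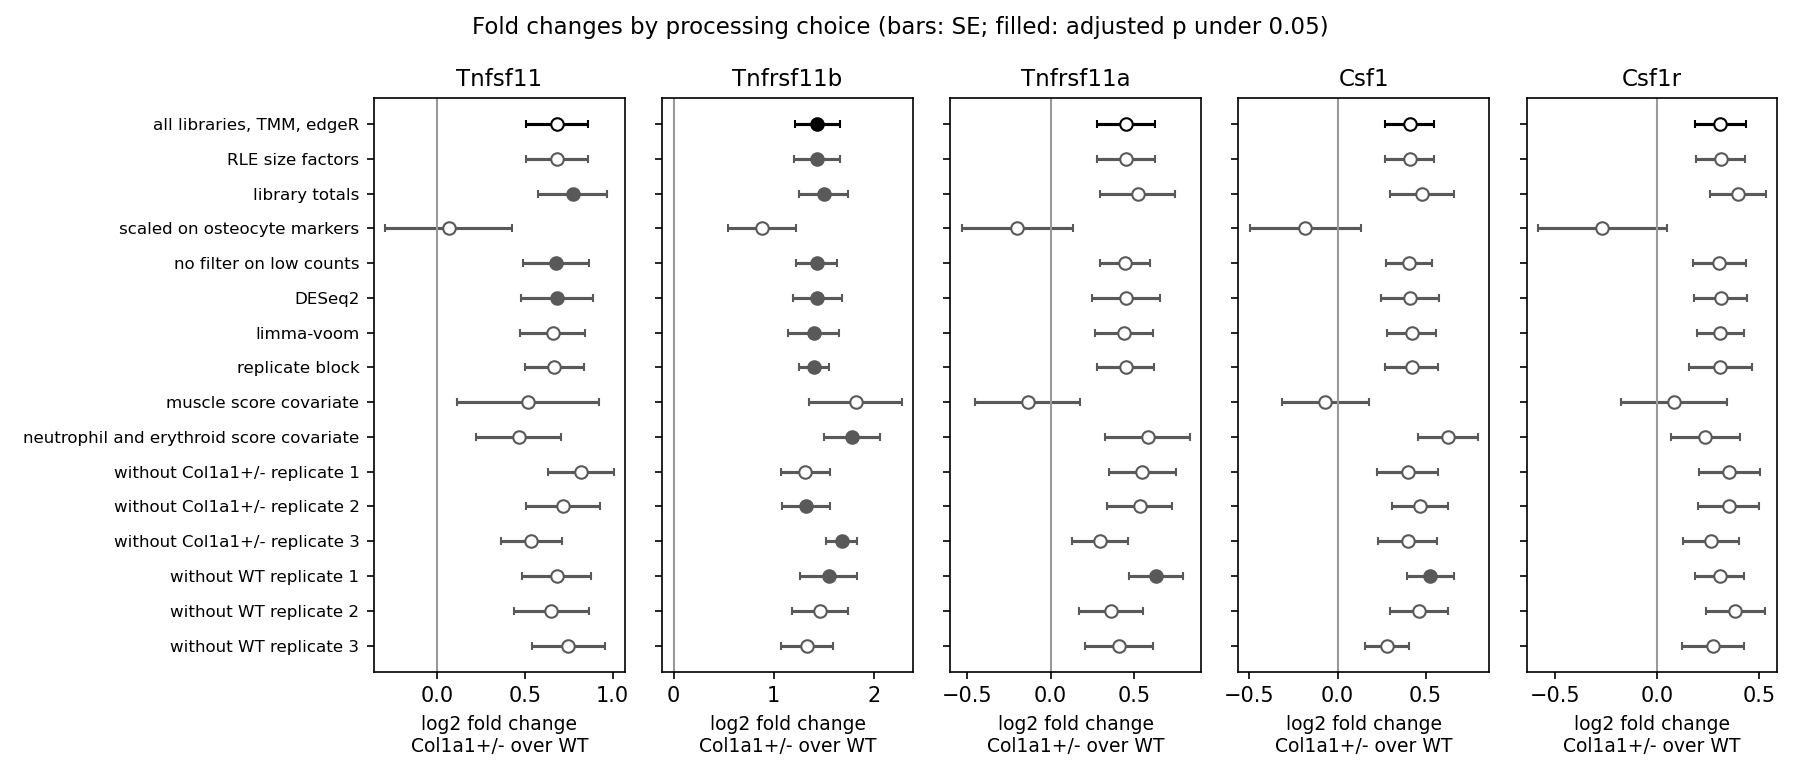
Each panel gives the log2 fold change of 1 gene (Col1a1+/- over WT) with its SE under 16 settings of processing, filled where the adjusted p is under 0.05. Tnfrsf11b lies between 0.88 and 1.82 throughout, while Tnfrsf11a and Csf1 cross 0 when libraries are scaled on osteocyte markers or a muscle score is a covariate, and Csf1r in the first of these.

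The levels were next set against marker lists of the cells concerned, within each library, as the log2 CPM of the gene minus the mean log2 CPM of the list. This was done for 5 genes and 7 lists, without adjustment, and no library pattern here can give an exact p below 0.1. Of these 35 comparisons 15 parted the genotypes (exact permutation p = 0.1 each). All 5 genes were higher in Col1a1+/- without overlap against marrow stromal markers and against muscle markers, where 26.1% and 91.3% of all tested genes parted in either direction. Against osteoclast markers 2 genes parted (32.5% of all tested genes) and against macrophage markers 2 (16.5%), all higher in Col1a1+/-. Against osteoblast markers 1 parted, lower in Col1a1+/- (65.5%), and 0 did against osteocyte (30.7%) or cartilage markers (61.2%).

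Against the cartilage list, Tnfrsf11b was at -1.55, -1.70 and -1.60 in the Col1a1+/- replicates and at -1.41, -2.22 and -1.65 in the WT replicates. The means differed by 0.15 (exact permutation p = 0.8), less than the spread between the WT libraries. The mean log2 CPM of the cartilage list was 6.87, 6.99 and 6.10 in the Col1a1+/- replicates and 5.21, 5.93 and 5.07 in the WT replicates. Within each genotype both the list and Tnfrsf11b were lowest in replicate 3, but the list was highest in replicate 2 and Tnfrsf11b in replicate 1. Of the 15 genes of the cartilage list, 6 rose and 0 fell (3 and 0 with scaling on osteocyte markers, and 0 to 6 rose with 1 library left out). Among those that rose was Acan, the cartilage proteoglycan aggrecan, at 212 ± 48.6 CPM in Col1a1+/- and 75.8 ± 15.6 CPM in WT (SD, n = 3 each, edgeR adjusted p = 0.0218). The part of cartilage RNA in the rise of Tnfrsf11b was not tested. Tnfrsf11b was higher in Col1a1+/- without overlap against marrow stromal markers (difference 1.54), macrophage markers (1.29) and osteoclast markers (1.10).

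Against the osteoblast list Tnfrsf11b was higher by 0.75 in Col1a1+/- (exact permutation p = 0.2), with overlap, at -3.56, -3.58 and -4.38 in the Col1a1+/- replicates and -4.13, -4.74 and -4.90 in the WT replicates. Relative to osteoblast markers the genotype means of Tnfsf11 differed by 0.02 (exact permutation p = 0.9) and relative to osteocyte markers by 0.10 (p = 1.0 by the same exact test). It was higher in Col1a1+/- without overlap relative to marrow stromal markers, by 0.81, and relative to osteoclast markers, by 0.37 (exact permutation p = 0.1 each). Csf1 was higher without overlap relative to marrow stromal markers (0.57) and macrophage markers (0.31; exact permutation p = 0.1 each). Osteoblast markers, of which 10 of 20 rose and 1 fell (0 rose with scaling on osteocyte markers, and 0 to 12 with 1 library left out), averaged 9.21% ± 0.518 of counts in Col1a1+/- and 4.89% ± 0.804 in WT (SD, n = 3 each). Most of that share was 1 gene, Col1a2, which averaged 71246 CPM in Col1a1+/- and 40038 CPM in WT. It did not pass (log2 fold change 0.83, edgeR adjusted p = 0.159). The osteoblast marker that rose with the smallest p was Omd, which encodes osteomodulin (log2 fold change 0.84, edgeR adjusted p = 0.0192). The one that fell was Mef2c (-0.67, edgeR adjusted p = 0.0341), a transcription factor gene that muscle expresses too. Of the osteocyte markers 0 passed by edgeR, with 3 at an unadjusted p under 0.05 and 2 called by DESeq2.

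Both receptors were set against osteoclast markers as well. Csf1r minus the osteoclast list was 1.43, 1.45 and 1.31 in the Col1a1+/- replicates and 1.40, 1.37 and 1.37 in the WT replicates, a difference of 0.02 (exact permutation p = 0.8). Tnfrsf11a minus the same list was -2.16, -2.10 and -1.97 in Col1a1+/- and -1.87, -2.57 and -2.25 in WT (difference 0.16, exact permutation p = 0.6). Osteoclast markers took 0.845%, 0.873% and 1.06% of counts in Col1a1+/- and 0.666%, 0.709% and 0.582% in WT, with Col1a1+/- replicate 3 the highest. Dcstamp and Ocstamp, which encode fusion proteins of osteoclasts, showed the same library on top. Dcstamp had 30.7, 29.2 and 47.6 CPM in Col1a1+/- samples against 24.4, 26.3 and 23.5 CPM in WT (log2 fold change 0.54, edgeR adjusted p = 0.128). Ocstamp had 39.5, 32.2 and 59.1 CPM in Col1a1+/- samples against 23.0, 31.4 and 25.1 CPM in WT (0.72, edgeR adjusted p = 0.111). Of 16 osteoclast markers 0 passed by edgeR, with 6 at an unadjusted p under 0.05 and 3 called by DESeq2. Over all 18514 tested genes these counts were 4228 and 2256. Among the osteoclast markers Ostm1 alone had a log2 fold change below 0, at -0.10.

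Relative to osteoblast markers Csf1r was lower in Col1a1+/-, at -0.53, -0.55 and -0.35 against 0.08, -0.22 and -0.31 in WT (difference -0.33, exact permutation p = 0.1). Macrophage and monocyte markers overlapped between genotypes, at 0.105% to 0.14% of counts in Col1a1+/- and 0.0935% to 0.178% in WT. None of 17 tested passed by edgeR, with 7 at an unadjusted p under 0.05, and DESeq2 called 1 higher and 1 lower. Cd68, a lysosomal protein of macrophages and osteoclasts, stood at 0.49 (edgeR adjusted p = 0.0696), and Ly6c2, a marker of inflammatory monocytes, at -1.05 (edgeR adjusted p = 0.214), with 126 CPM in WT replicate 1. T cells can also make RANKL, and their markers were scarce, at 0.00475% to 0.00601% of counts in Col1a1+/- and 0.00427% to 0.00574% in WT. Of 13 bone marrow stromal markers 5 had a log2 fold change above 0, and 4 to 7 did with 1 library left out. By edgeR 0 rose and 1 fell, and DESeq2 called 2 higher and 1 lower. The marker that fell was Lpl, a lipase of stromal and fat cells and of muscle (-0.97, edgeR adjusted p = 0.0449), a call lost without Col1a1+/- replicate 1 or 3 or WT replicate 2 or 3. Those fits called 0, 44, 8 and 0 genes in all, against 803 with all libraries. Foxc1, a transcription factor gene of stromal cells, stood at 0.39 (edgeR adjusted p = 0.0624), and Pdgfra, a receptor for platelet-derived growth factor chosen after its value was seen, at 0.45 (edgeR adjusted p = 0.0768).

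Of the remaining lists, 1 of 11 fat cell markers fell (Plin4) and 1 of 13 erythroid markers (Sptb), and 0 rose in either by edgeR. Both counts were 0 without Col1a1+/- replicate 1 or 3 or WT replicate 2 or 3, where 0, 44, 8 and 0 genes were called in all. Without WT replicate 1, where 1172 genes were called lower against 538 with all libraries, the fat cell count was 3. DESeq2, which called 1468 genes lower, called 3 fat cell markers and 1 erythroid marker lower. The median log2 fold change was 0.03 for the fat cell list and -0.13 for the erythroid list. Of 16 neutrophil, 12 tendon and fibroblast, 12 B cell and 12 T cell markers 0 passed by edgeR. At an unadjusted p under 0.05 were 5, 3, 4 and 0 of them, beside 4228 of all 18514 tested genes. DESeq2 called 0, 3, 3 and 0 lower.

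**Figure D4:**
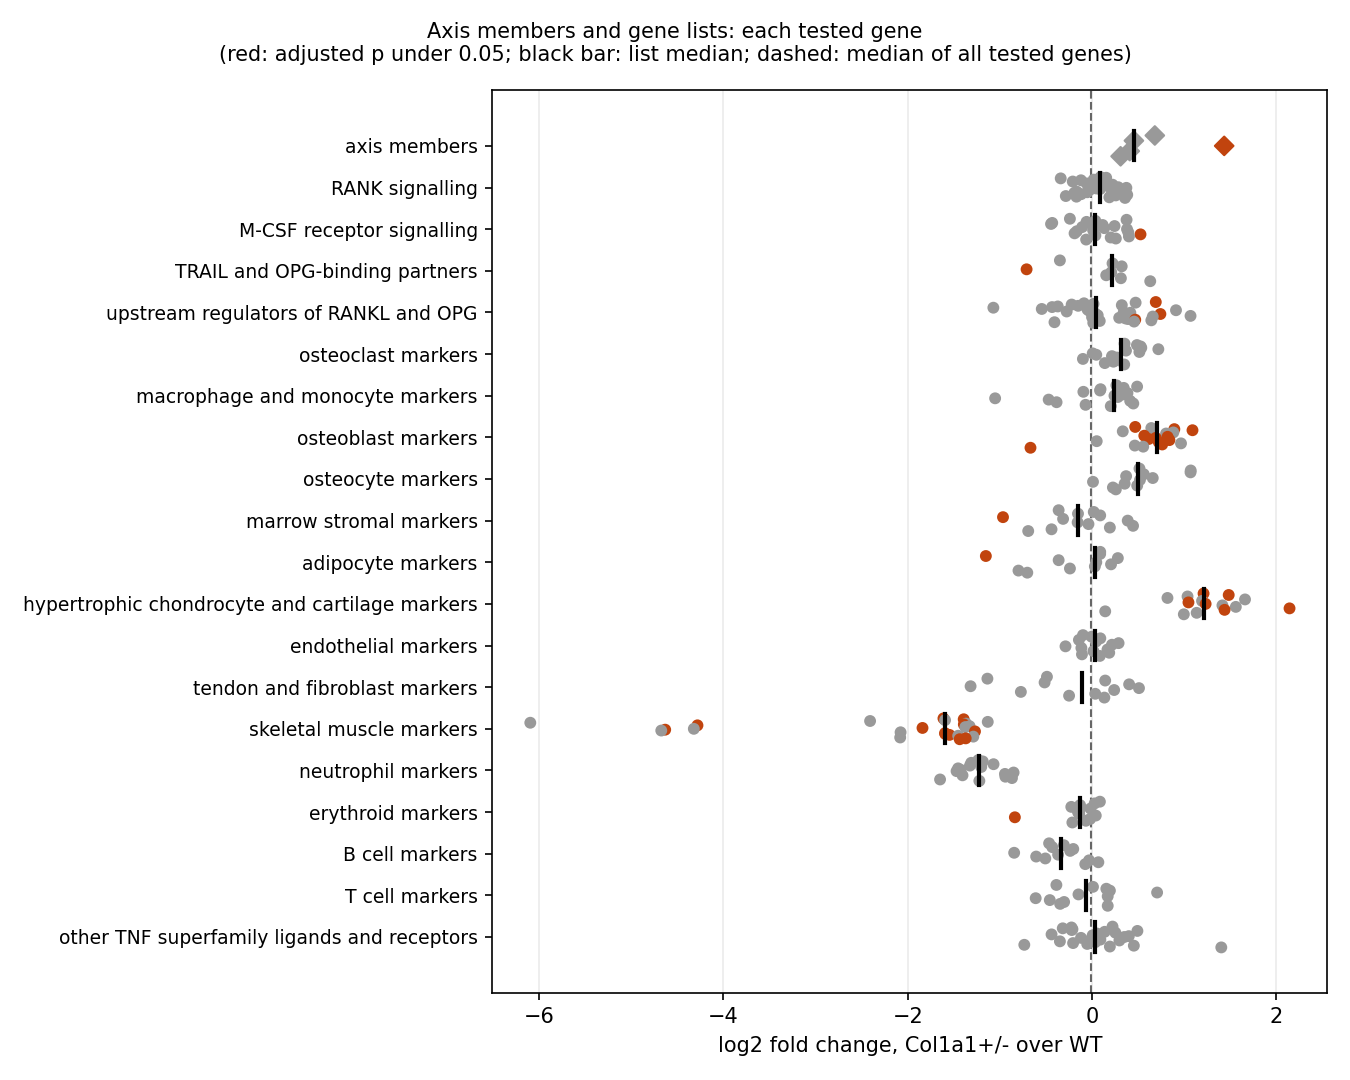
Log2 fold changes (Col1a1+/- over WT) are plotted for the 5 axis genes as diamonds and for each tested gene of the marker and pathway lists as points, red where the adjusted p is under 0.05. The axis genes have a median of 0.46, between that of osteoclast markers (0.31) and that of osteocyte markers (0.50), and Tnfrsf11b, at 1.43, is the only one above the median of cartilage markers (1.21).

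Of 34 genes for RANK signalling, from the adaptor Traf6 to the transcription factor Nfatc1, 0 passed by edgeR. An unadjusted p under 0.05 was held by 6 (4228 of all 18514 tested genes), and DESeq2 called 1 (2256 of all). The median log2 fold change was 0.09 (-0.51 with scaling on osteocyte markers, where 2 fell). Lgr4, which encodes another receptor for RANKL, stood at 60.6 ± 1.22 CPM in Col1a1+/- and 47.3 ± 2.81 CPM in WT (SD, n = 3 each; log2 fold change 0.36, edgeR adjusted p = 0.063). Src, a kinase that osteoclasts need to resorb, stood at 0.38 (edgeR adjusted p = 0.0993). In the other direction Traf3, which encodes a brake on RANK signalling, stood at -0.34 (edgeR adjusted p = 0.116), at 43.5, 36.9 and 44.2 CPM in Col1a1+/- and 53.1, 48.1 and 56.4 CPM in WT. Tab2, an adaptor of the kinase TAK1, stood at -0.21 (edgeR adjusted p = 0.232). Nfatc1 averaged 152 CPM in Col1a1+/- samples and 125 CPM in WT samples (0.29, edgeR adjusted p = 0.151), and Traf6 30.1 CPM in Col1a1+/- and 28.2 CPM in WT (0.09, edgeR adjusted p = 0.674); both were chosen after their values were seen.

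Of 21 genes around the M-CSF receptor 1 rose, the Src family kinase gene Fyn, at 148 ± 6.27 CPM in Col1a1+/- and 103 ± 11 CPM in WT (SD, n = 3 each; log2 fold change 0.53, edgeR adjusted p = 0.0402). Fyn is expressed in many cell types. Its call was lost when any library other than WT replicate 1 was left out. The number of genes called in all was then 0, 930 and 44 without Col1a1+/- replicates 1, 2 and 3. It was 8 and 0 without WT replicates 2 and 3, against 803 with all libraries. The list median was 0.04, and with scaling on osteocyte markers 0 rose and 2 fell. Dok1, an adaptor that restrains signalling by tyrosine kinases, stood at 0.38 (edgeR adjusted p = 0.112). The leukocyte PI3-kinase subunit genes Pik3cd and Pik3cg stood at -0.43 and -0.44 (edgeR adjusted p = 0.318 and 0.388), and both were highest in WT replicate 1, at 71.5 and 22.3 CPM. Il34, the other ligand of the M-CSF receptor, was singled out after its values were seen, at 4.41 CPM in Col1a1+/- and 5.22 CPM in WT (-0.24, edgeR adjusted p = 0.599).

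Osteoprotegerin also binds TRAIL and von Willebrand factor, and sheddases release RANKL from the membrane. Of 9 genes in this group Mmp7 had 0 reads in all libraries. Of the 8 tested, Vwf alone passed and fell, at 48.7 ± 3.24 CPM in Col1a1+/- and 79.7 ± 7.84 CPM in WT (SD, n = 3 each; log2 fold change -0.71, SE 0.11, edgeR adjusted p = 0.0238). Its call was lost without Col1a1+/- replicate 1 or 3 and without WT replicate 2 or 3, where 0, 44, 8 and 0 genes were called in all. Of 14 endothelial markers 0 passed by edgeR or DESeq2, with 1 at an unadjusted p under 0.05 and a median of 0.03. Tnfsf10, which encodes TRAIL, stood at -0.35 (edgeR adjusted p = 0.215). The proteoglycan gene Sdc1 stood at 0.32 (edgeR adjusted p = 0.184) and the RANKL sheddase gene Mmp14 at 0.31 (edgeR adjusted p = 0.246).

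Among 34 tested genes that act on Tnfsf11 and Tnfrsf11b expression, 3 rose and 0 fell (0 and 3 with scaling on osteocyte markers), and the median log2 fold change was 0.05. The 3 were Tcf7, Pth1r and Runx2. Tcf7, a transcription factor of the Wnt pathway, through which osteoprotegerin is induced in osteoblasts, stood at 49.1 ± 4.9 CPM in Col1a1+/- and 29.4 ± 3.01 CPM in WT (SD, n = 3 each; log2 fold change 0.74, SE 0.12, edgeR adjusted p = 0.024). Other genes of that pathway in the list, named after their values were seen, did not pass. Lef1, Axin2 and Lrp6 stood at 0.04, 0.06 and 0.03 (edgeR adjusted p = 0.957, 0.879 and 0.892). Lrp5 and Ctnnb1 stood at 0.42 and 0.34 (edgeR adjusted p = 0.108 and 0.158). Pth1r, the parathyroid hormone receptor, through which RANKL is induced, stood at 548 ± 25.2 CPM in Col1a1+/- and 339 ± 46 CPM in WT (0.69, SE 0.14, edgeR adjusted p = 0.0369). Runx2, the osteoblast master regulator, stood at 0.47 (edgeR adjusted p = 0.0426) and was named because the count is small. Pth1r and Runx2 are also in the osteoblast list. The 3 calls became 0 without Col1a1+/- replicate 1 or 3 or WT replicate 2 or 3, 1 without Col1a1+/- replicate 2 and 7 without WT replicate 1. Over all genes the same fits called 0, 44, 8, 0, 930 and 1766, against 803 with all libraries. In the other direction Nr3c1, the glucocorticoid receptor gene, stood at -0.27 (edgeR adjusted p = 0.173), and Il1b, an inflammatory cytokine, at -1.07 (edgeR adjusted p = 0.257) with its highest level, 6.79 CPM, in WT replicate 1.

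The 25 other tested genes of TNF superfamily ligands and receptors had a median log2 fold change of 0.04, and 0 passed by edgeR or DESeq2. An unadjusted p under 0.05 was held by 4 of them, and by 4228 of all 18514 tested genes. Tnfrsf23, a decoy receptor for TRAIL in the mouse, stood at 0.40 (edgeR adjusted p = 0.132), Tnfrsf1a, a receptor for TNF, at 0.25 (edgeR adjusted p = 0.197), and the death receptor gene Tnfrsf21 at -0.44 (edgeR adjusted p = 0.176).

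The genes whose centred log2 CPM lay nearest to that of each axis gene over the 6 libraries were sought among 13224 protein-coding genes of at least 1 CPM. For Tnfrsf11b they were Lgr6, a receptor for R-spondins, Acan, and Comp, a cartilage and tendon matrix protein, at root mean square differences of 0.12, 0.154 and 0.169 on the log2 scale, beside a spread of Tnfrsf11b itself of 0.755. Lgr6 had 42.5, 35.6 and 27.2 CPM in Col1a1+/- samples against 13.9, 13.5 and 10.8 CPM in WT. Its 6 libraries ranked in the same order as those of Tnfrsf11b, a likeness for which it was picked. Acan and Comp belong to the cartilage list.

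For Tnfsf11 the nearest were the transporter gene Slc22a18, Bcat1, an enzyme of branched-chain amino acid metabolism, and Fam81a, at 0.0852, 0.0908 and 0.0914, beside its own spread of 0.375. Tnfrsf11a lay nearest to Egfr, the epidermal growth factor receptor gene, at 0.0533, then to Aspm and Nxt2. Egfr had levels of 28.9, 30.9 and 38.7 CPM in Col1a1+/- and of 27.1, 20.6 and 21.9 CPM in WT. Csf1 lay nearest to Sulf2, a sulfatase gene, at 0.0222, then to Ccl8 and Nhs. Csf1r lay nearest to Polr1e and Snx14, at 0.0146 and 0.0237, beside its own spread of 0.183. No gene of the axis was among the 3 nearest to another.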

How the data were processed

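Each deposited file gives, for 1 library, raw counts of reads in genes that the authors had not normalized, as the file headers and values show. Counting was by featureCounts 2.0.3 with Ensembl release 107 on GRCm39, with each mate as 1 read and without strand, per the file headers. The submitters' processing notes also name Trimmomatic 0.39, HISAT2 2.2.1 and SAMtools 1.20. Counts of 1 to 20 were even in 61.8% to 64.2% of cases. Symbols came from a table of gene identifiers (91.8% matched), and gene types from a GENCODE annotation.

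Genes passing filterByExpr (18514, with 99.87% to 99.9% of counts) entered edgeR 4.0.16 (R 4.3.3): TMM factors of 0.892 to 1.104, robust quasi-likelihood F test, genotype as the only term, Benjamini-Hochberg adjusted p under 0.05 over all tested genes. An SE is the log2 fold change over the square root of F. CPM are after TMM, and log2 CPM use a prior count of 2. Ratios and other single values had exact two-sided permutation tests (SciPy 1.17.1). The test was tried on simulated data before use. Alternatives used DESeq2 1.42.0, limma 3.58.1 (voom), other scalings, covariates and single libraries left out. Pairs of libraries of 1 genotype differed by 25.7 to 87.6 times the variance of counting (chi-square per degree of freedom), so none was a copy.

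The members, gene lists and tests were chosen with earlier results of these data known. Genes named are the 5 members; up to 2 per direction with the smallest p of the pathway, osteoclast and TNF superfamily lists and 1 of the others, as far as they bear on the members; and the 3 nearest to each member, of which 1 is not reported here.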

Additional observations from a re-analysis of the deposited data

How the results depend on the processing

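The number of called genes, 803 by edgeR (4228 at an unadjusted p under 0.05), was 1327 with library totals, 3045 with libraries scaled on osteocyte markers, 1472 without a filter, 2256 by DESeq2, and 0 with the muscle covariate (1071 at an unadjusted p under 0.05). With 1 library left out it lay between 0 and 1766, and DESeq2 was not run on these. It was 0 without Col1a1+/- replicate 1 (3275 at an unadjusted p under 0.05) or WT replicate 3 (3239). It was 8 without WT replicate 2, 44 without Col1a1+/- replicate 3, 930 without Col1a1+/- replicate 2 and 1766 without WT replicate 1. Scaling on osteocyte markers moves the median of all genes to -0.60, and relative to that median the log2 fold changes were 0.66 for Tnfsf11, 0.40 for Tnfrsf11a, 1.48 for Tnfrsf11b, 0.42 for Csf1 and 0.33 for Csf1r. On that scale itself Tnfrsf11b lost its call at 0.88 and Tnfrsf11a, Csf1 and Csf1r turned to -0.20, -0.18 and -0.27. With the muscle covariate Tnfrsf11b lost its call at 1.82, and Tnfrsf11a and Csf1 turned to -0.14 and -0.069. The muscle score did not overlap between genotypes, so these values cannot tell muscle content from genotype. Tnfsf11 gained a call at 0.77 with library totals, 0.68 without a filter and 0.68 by DESeq2. The cause of these changes was not tested.

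With 1 library left out the log2 fold change was 0.54 to 0.82 for Tnfsf11, 0.30 to 0.63 for Tnfrsf11a, 1.32 to 1.68 for Tnfrsf11b, 0.28 to 0.53 for Csf1 and 0.26 to 0.38 for Csf1r. The difference in the Tnfsf11 to Tnfrsf11b ratio was -0.377 to -0.151, and that in the Csf1 to Csf1r ratio -0.00023 (without WT replicate 3) to 0.0758. The exact permutation test used for the ratios cannot pass the threshold with 3 libraries against 3, so its p-values say nothing of stability.

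The libraries share only a replicate number: deviations from the genotype mean correlated across genes by 0.107, 0.0413 and -0.122 for numbers 1, 2 and 3, and not every library correlated best with its own number. With the replicate block edgeR called 126 genes, Tnfrsf11b stood at 1.40 (adjusted p = 0.033), and the paired test of the log2 ratio of Tnfsf11 to Tnfrsf11b gave an exact p of 0.25, the smallest possible for 3 pairs.

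The 220 to 463 reads of Tnfsf11 and 308 to 1330 of Tnfrsf11b per library limit how closely their ratio is known.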
